A study of Mus musculus with 10 samples.

Results

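Nuclear RNA-seq of the in vitro differentiation of mouse embryonic stem cells (ESCs) to blood was searched for genes which the authors' matrix of average expression leaves out and which were abundant only at the ESC stage. These ES-restricted genes numbered 72 of the 39801 genes outside the matrix and of the 55487 genes in the count tables. They were chosen by their own values in the libraries described here: each had at least 5 CPM (the usual scaling of the fragments counted on a gene by the total count of its library) in both ES libraries, and an ES mean at least 8 times the mean of each of the 4 later stages. The fall after the ES stage is therefore what defines them and not a result. The matrix holds 15686 genes, of which 99.8% are protein coding, against 15.9% of the genes outside it. Of 940 genes outside the matrix which reached 5 CPM in both ES libraries, 7.66% met the ratio, as did 387 of 10745 matrix genes at that level (3.60%).

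The starting cells were of HM-1, a mouse ESC line grown with serum and LIF on gelatin (ES). After 3 days as embryoid bodies in medium with serum, cells carrying FLK1 were enriched on magnetic beads as the hemangioblast stage (HB), which gives rise to endothelial and blood cells. These were replated for blast culture with VEGF, IL-6 and medium conditioned by D4T endothelial cells, and were then sorted into a first hemogenic endothelium (HE1: KIT+ TIE2+ CD41-), a second one (HE2: KIT+ TIE2+ CD41+) and hematopoietic progenitors (HP: KIT+ TIE2- CD41+). All cells came from this 1 line, the labels name no genetic change between the stages, each of the 5 stages had 2 libraries, and RNA from the nuclear fraction was depleted of ribosomal RNA and sequenced as strand-specific libraries. The study describes the libraries of a stage as biologically independent replicates, while the labels do not say how their cultures were separated. With 2 libraries per stage, the p-values below measure the spread between these libraries.

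Total counts per library lay between 24920434 and 58782055. A floor of 3 counts, which covers counting error only, was 0.0510 to 0.120 CPM. Defining markers were checked against the stage labels: the pluripotency factor genes Pou5f1, Sox2, Nanog, Zfp42 and Esrrb summed to 1916 and 1837 CPM in ES, Kdr (which encodes FLK1) rose from 2.33 and 2.58 CPM in ES to 996 and 1265 in HB, the endothelial gene Cdh5 was highest in HE1 at 1365 and 902 CPM, and Runx1 stood at 508 and 438 CPM in HP, where it overlapped HE2 at 292 and 497. Itga2b, which encodes CD41, was at 500 and 449 CPM in HE2, and at 217 and 144 in HE1, which was sorted as lacking CD41 on the surface, against 50.0 and 33.9 in HB. Tek, Pecam1 and Sox17 were also highest in HE1, while Kit, the gene of another sorted antigen, was not. Kit stood at 140 and 82.5 CPM in HE1, against 157 and 165 in ES and 228 and 393 in HE2. One library stood apart. The 5 ES markers summed to 75.7 CPM in HE1 replicate 2 against 6.02 in HE1 replicate 1, close to the 103 and 73.4 CPM of the HB libraries and far above the 2.84 and 2.10 of HE2 and the 5.88 and 1.49 of HP. Germline genes summed to 34.3 CPM in it against 4.86 in replicate 1, and 4 fibroblast genes to 953 against 340. The fibroblast genes were also at 480 and 376 CPM in HE2 and 684 and 395 in HP. Each result that rests on HE1 is therefore given with and without replicate 2, and the part of these other transcripts in the results was not tested. In bulk RNA, fewer cells of a type and less RNA per cell cannot be told apart.

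Long noncoding RNAs (lncRNAs) are transcripts without a known protein product which often stay in the nucleus, and many are expressed in 1 cell type only. In ESCs they include the Platr genes (pluripotency-associated transcripts) and Tsix, the antisense RNA that opposes Xist in X-chromosome inactivation. MicroRNAs (miRNAs) are cut from hairpins in long nuclear primary transcripts and repress mRNAs that pair with their seed, the bases from position 2 to 8 of the mature strand. The miR-290 cluster is the best known miRNA locus of mouse ESCs, and its members act on the cell cycle and on the exit from pluripotency.

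None of the 72 genes was annotated as protein coding, against 8 (0.922%) of the other 868 genes outside the matrix at the same ES level. By GENCODE, 41 (56.9%) were lncRNAs (24 lincRNA, 11 processed transcripts and 6 antisense), 19 (26.4%) pseudogenes, 7 (9.72%) miRNA genes, 4 were of the provisional class TEC, and 1 was a small nuclear RNA. The other 868 genes outside the matrix at the same ES level held 20.3% lncRNAs, 38.9% pseudogenes and 7.95% miRNA genes, and 19.4% of them were small nucleolar RNAs, of which the 72 held none. The ES-restricted genes were also longer, with a median exonic length of 1562.5 bases against 607.5, and 26.4% of them were a single block of exon against 78.1% of the others. Of the 72, 15 (20.8%) overlapped a matrix gene on the opposite strand against 7.26% of the others, 4 (5.56%) shared exon bases with a matrix gene on their own strand against 23.5%, and 49 (68.1%) lay in none of the listed relations to a matrix gene against 43.3%. Chromosome 7 carried 18 of them (25.0% against 7.37% of the others), 7 of which were the miR-290 genes. These shares are descriptions and were not tested.

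**Figure D1:**
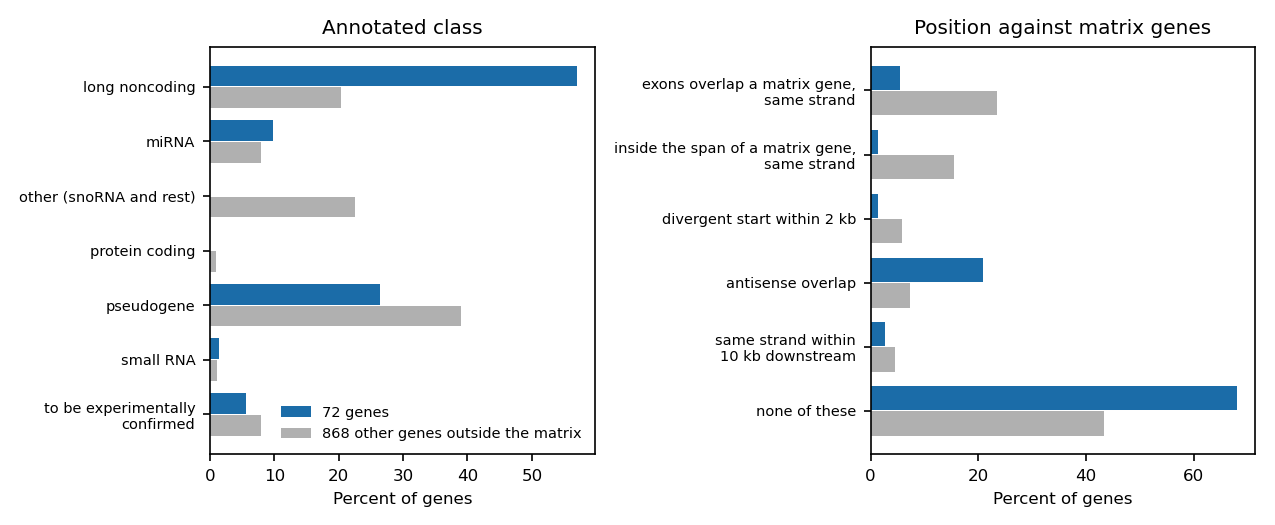
Share of the 72 ES-restricted genes (blue) and of the 868 other genes outside the matrix at 5 CPM or above in ES (grey) in each annotated class (left) and in each position relative to matrix genes (right), in percent of genes. LncRNAs make up 56.9% of the first set and 20.3% of the second, and antisense overlap 20.8% against 7.26%.

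The 7 miRNA genes formed the only cluster of 3 or more members. Mir290a, Mir291a, Mir292, Mir291b, Mir293, Mir294 and Mir295 lie within 2.215 kb on the plus strand of chr7:3218626-3220841 (GRCm38), and all but Mir290a lie inside Nlrp12, a gene on the opposite strand. Their mature strands are shown because the seed is the part by which they pair with mRNAs, and it is the same or nearly so in several of them. The sequences are those of RefSeq on GRCm38.p6, written 5′ to 3′ with the seed in capitals.
mmu-miR-291a-3p: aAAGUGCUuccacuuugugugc
mmu-miR-294-3p: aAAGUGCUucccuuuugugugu
mmu-miR-295-3p: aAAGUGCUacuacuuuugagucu
mmu-miR-291b-3p: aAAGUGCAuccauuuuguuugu
mmu-miR-290a-3p: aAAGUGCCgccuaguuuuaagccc
mmu-miR-293-3p: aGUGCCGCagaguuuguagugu
mmu-miR-292a-5p: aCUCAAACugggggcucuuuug
The seeds of miR-291a-3p, miR-294-3p and miR-295-3p were the same, AAGUGCU, and those of miR-291b-3p (AAGUGCA) and miR-290a-3p (AAGUGCC) had 6 of 7 bases in common with it. The seed of miR-293-3p was GUGCCGC. The RefSeq table used here gave a 5p strand alone for Mir292, so that its 3p seed was not compared. On that arm, miR-292a-5p shared CUCAAAC with miR-290a-5p and miR-293-5p.

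All 7 hairpins were counted at 7.77 to 27.7 CPM in the ES libraries. These counts are of nuclear RNA fragments that touch a hairpin of 69 to 84 bases, so they follow the primary transcript and not the mature miRNA, and a fragment that touches a pair of neighbouring hairpins is counted on both. Mir291b was the highest with 26.0 and 27.7 CPM in ES. It stood at 1.38 and 0.860 CPM in the HB libraries. Those of HE1 held 0.0803 and 0.336, those of HE2 0.0604 and 0.0304, and those of HP 0.0665 and 0.101 CPM. Every library of HB was above every library of HE1, HE2 and HP. Mir293 had 13.0 and 13.3 CPM in ES against 0.620 and 0.777 in HB, while HE1 had 0.120 and 0.149, HE2 had 0.0302 and 0, and both HP libraries had 0. Over the 7 genes, the median level left was 5.53% and 2.97% of the ES mean in the HB libraries, against 0.299% and 2.21% for HE1, 0.225% and 0% for HE2, and 0.210% and 0.310% for HP. The list of ESC miRNAs that these genes belong to has 14 members. The Mir302 cluster and Mir367, which are known from a later pluripotent state, were at most 0.136 CPM in ES and at most 0.361 CPM in HB, and Mir290b and Mir292b were at most 0.0274 CPM in ES.

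Lncenc1, a lincRNA expressed in ESCs, had by far the highest CPM of the 72, which is not corrected for length (chr13:97434970-97497007, plus strand). The ES libraries held 409 and 410 CPM of it and the HB libraries 8.36 and 3.55. HE1 had 3.49 and 13.6 CPM, HE2 had 1.93 and 0.942, and HP had 0.732 and 0.608, so that its level in HE1 replicate 2 was above both HB libraries. Platr14 followed with 91.0 and 92.7 CPM in ES and 0.881 to 3.21 CPM in the 8 later libraries. Tsix, on the X chromosome, had 74.3 and 77.7 CPM in ES, and its highest later stage was HP with 3.59 and 5.41 CPM, against 2.55 and 1.72 in HB. Platr10 had 76.4 and 72.6 CPM in ES, 1.89 and 0.388 in HB, 0.120 and 2.65 in HE1, and at most 0.133 in HE2 and HP. Of these 4 genes, all but Tsix were higher in HE1 replicate 2 than in any other later library.

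The remaining genes among the 12 highest in ES were of several kinds. Zfp42-ps1, a processed pseudogene of the pluripotency gene Zfp42, had 67.5 and 61.2 CPM in ES, and 37.2% of its 50-base words occur in Zfp42 transcripts, so that its reads may come in part from that gene. Gm13230 (53.1 and 61.9 CPM in ES) and Gm13147 (48.1 and 60.8) are transcribed pseudogenes on chromosome 4, and Gm13230 shares 290 exon bases with Platr16 (21.6 and 23.7). Gm42793 had 49.9 and 52.0 CPM, but 24.7% of its exon bases are also those of Spp1, the gene of the secreted phosphoprotein osteopontin, on the same strand. EU599041, a lincRNA on chromosome 7, had 47.5 and 47.8 CPM in ES. It had 2.89 and 1.36 CPM in HB and at most 0.0911 in the libraries of HE2 and HP. Gm32885, a lincRNA on chromosome 15, had 24.8 and 23.7 CPM in ES and at most 1.12 later, and Mir291b completed the 12. Outside the miR-290 cluster, 4 pairs of ES-restricted genes lay within 100 kb of each other: Lncenc1 with Gm2379, Platr16 with Gm13230, Platr4 with Gm40040, and Gm17768 with Gm10351.

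**Figure D2:**
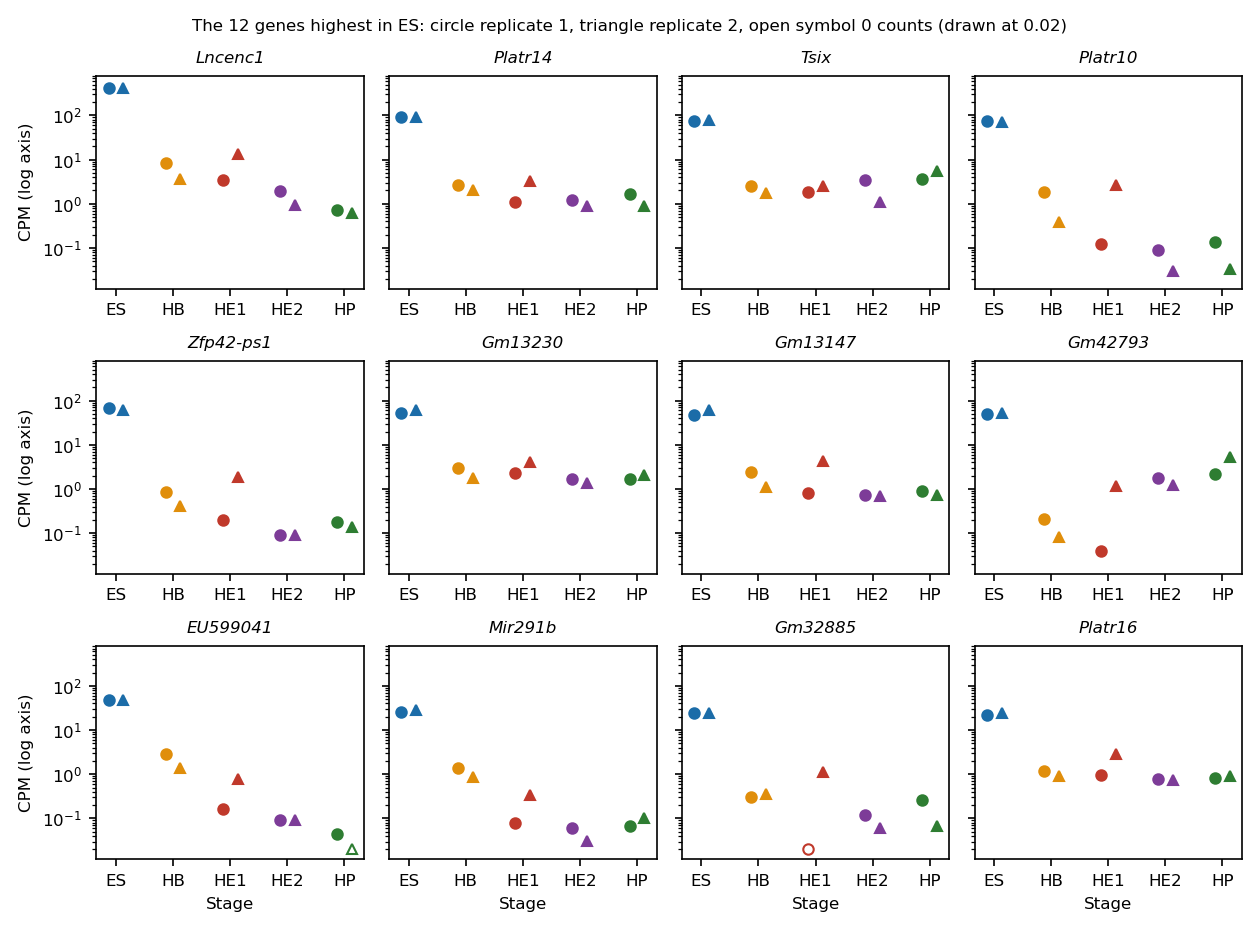
CPM (log axis) of the 12 ES-restricted genes with the highest ES mean in each library, by stage; circles are replicate 1, triangles replicate 2, and open symbols are libraries with 0 counts, drawn at 0.02. Lncenc1 runs from 409 and 410 CPM in ES to 0.732 and 0.608 in HP, Tsix and Gm42793 are higher in HP than in HB, and the triangle of HE1 lies above its circle in all 12 panels.

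Compared per length in ES, with the hairpins, Gm23497 and Gm10351 left out as too short, Zfp42-ps1 stood first at 131 CPM per kb of exon, ahead of Lncenc1 at 124, Platr14 at 58.2, Gm45886 at 46.9 and Platr10 at 42.7. Gm45886 shares most of its exon bases with Apela, and Zfp42-ps1 shares sequence with Zfp42. The ES means of the 72 genes ran from 5.38 CPM for Gm33027 to 409 for Lncenc1 with a median of 11.1 CPM, and 17 genes were at 20 CPM or above. Together they took 0.165% and 0.167% of the counts of the ES libraries. The ES libraries differed little in these genes: the log2 ratio of replicate 1 to replicate 2 ran from -0.34 (Gm13147) to 0.32 (Gm14820) with a median of -0.01. At the ratio of the rule, the genes just inside were Gm17771 (8.14 times the highest later mean), Gm14058 (8.71) and Miat (8.94), and those just outside were Gm20939 (6.73), Gm10451 (6.52) and Znf41-ps (6.31). At the ES level, the lower ES library was at 5.16 CPM for Gm4971, 5.17 for Gm33027 and 5.52 for Gm10351 just inside, and at 4.98 for 2310043M15Rik, 4.93 for 4930461G14Rik and 4.91 for Gm13228 just outside.

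**Figure D3:**
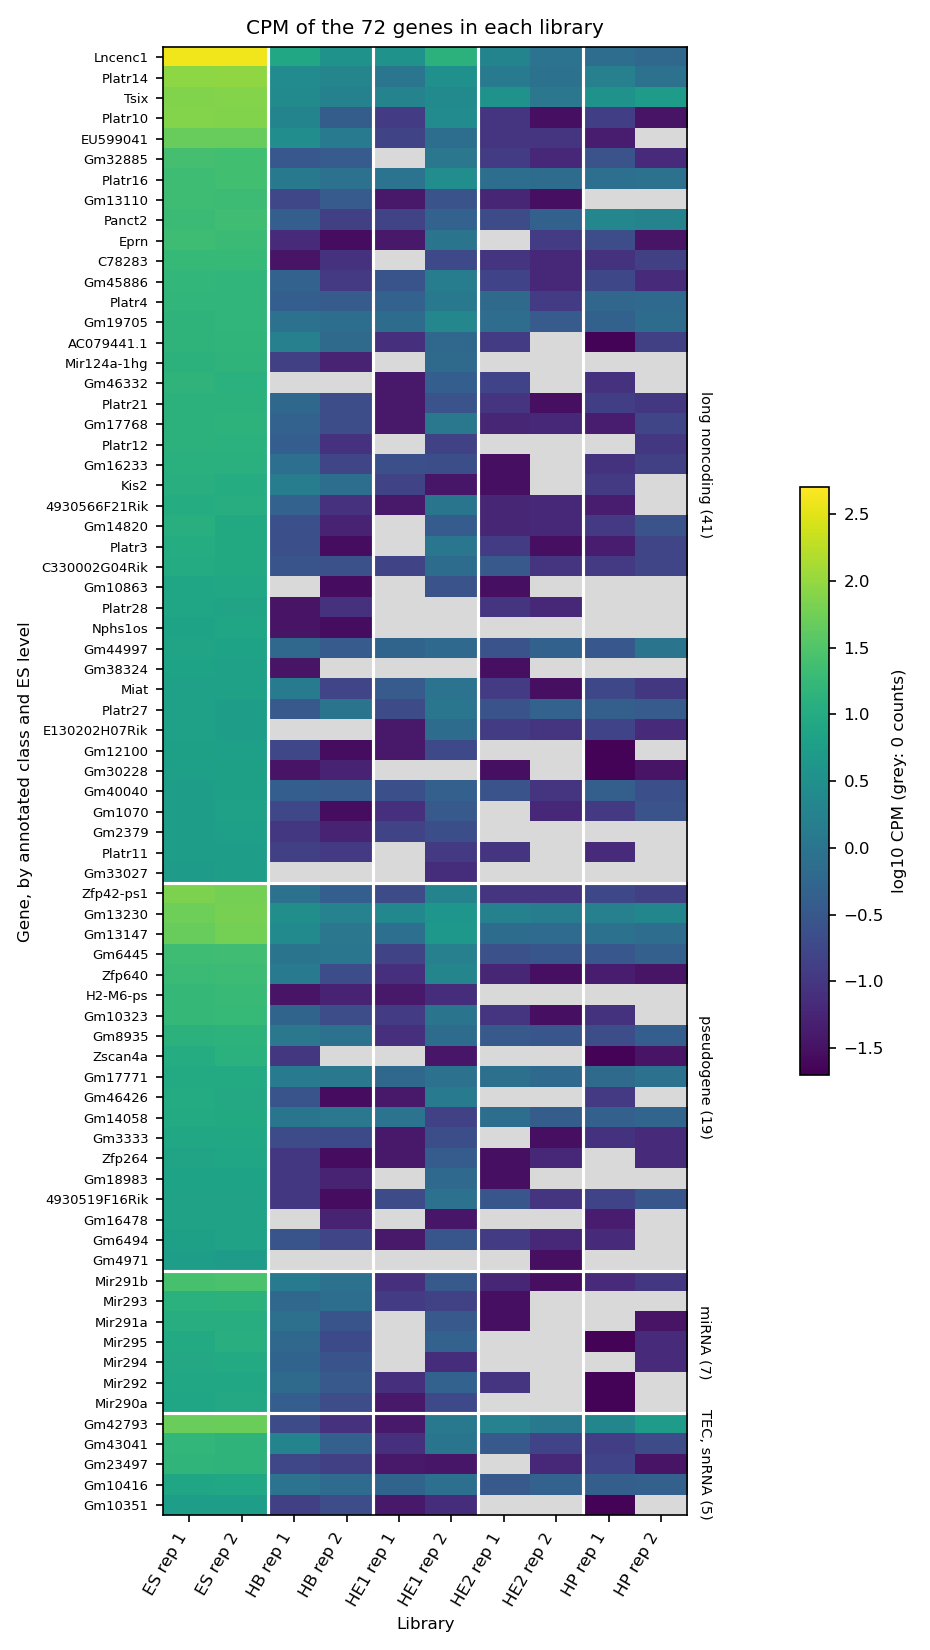
Log10 CPM of the 72 ES-restricted genes (rows, by annotated class and ES mean) in the 10 libraries (columns); grey marks 0 counts. The ES columns are bright because the genes were chosen for it, and among the later columns HE1 replicate 2 and both HB libraries hold the fewest empty cells (5, 6 and 6 genes).

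The 72 genes were compared with lists of ESC genes. Of 47 ESC lncRNAs listed, 42 were in the tables and 12 were ES-restricted by the rule: Lncenc1, Tsix, Platr3, Platr4, Platr10, Platr11, Platr12, Platr14, Platr16, Platr21, Platr27 and Platr28. The ES levels of the Platr genes among them ran from 5.79 CPM as a mean for Platr11 to 91.9 for Platr14. A further 28 lay outside the matrix and did not meet the rule, 21 of them because an ES library was under 5 CPM and 7 because the later level was too high. The latter were Platr22, Firre, Ftx, Snhg3, Dancr, Meg3 and Mir17hg. Firre, a lncRNA of nuclear organization, for example had 280 and 273 CPM in ES and 276 and 175 in HB. Of 21 genes of the 2-cell-like state, a rare state of ESC cultures, Zscan4a alone was among the 72 (10.6 and 13.0 CPM in ES, at most 0.103 later), and 50.7% of its 50-base words occur in Zscan4c. The 25 protein-coding pluripotency genes are all in the matrix and were tested on their own: with edgeR, 21 were lower in HB than in ES and 1, Tbx3, was higher, beside 17.3% lower and 11.5% higher among all 22596 genes tested. Esrrb fell by 5.82 on the log2 scale (SE 0.64, adjusted p = 5.8e-05), Nanog fell by 4.18 (SE 0.80, adjusted p = 0.0020), and Klf4 fell by 1.61 (SE 0.36, adjusted p = 0.0053), while Sall4 changed by -0.38 (SE 0.17, adjusted p = 0.11) and Lin28a by -0.17 (SE 0.17, adjusted p = 0.45). Leaving out the genes of the rule, whose fall was fixed by it, 15 of 17 2-cell-like genes tested were lower in HB, as were 15 of 16 germline genes. Of the 25 ESC lncRNAs tested outside the rule, 13 were lower and 2 higher.

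The level left after the ES stage differed between libraries. The 72 genes summed to 1646 and 1671 CPM in ES and to 54.4 and 30.1 in HB. The sums were 18.6 and 70.9 CPM for the HE1 libraries, 20.1 and 12.8 for HE2, and 21.4 and 26.8 for HP. As a median over the 72 genes, 2.86% and 1.41% of the ES mean was left in HB. The HE1 libraries kept 0.470% and 3.56%, those of HE2 0.494% and 0.276%, and those of HP 0.649% and 0.485%. HE1 replicate 2 was thus above all other later libraries, and 63 of the 72 genes were higher in it than in HE1 replicate 1 while 4 were lower. HB replicate 1 was above HB replicate 2 in 55 genes and below it in 13. The 387 matrix genes that met the same ratio showed 1.28% and 5.52% in the HE1 libraries, with 358 higher in replicate 2, and the 5 ES markers showed 0.277% and 3.18%. Without HE1 replicate 2, the same number of genes, 72, met the rule, and without HE1 replicate 1 it was 67.

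**Figure D4:**
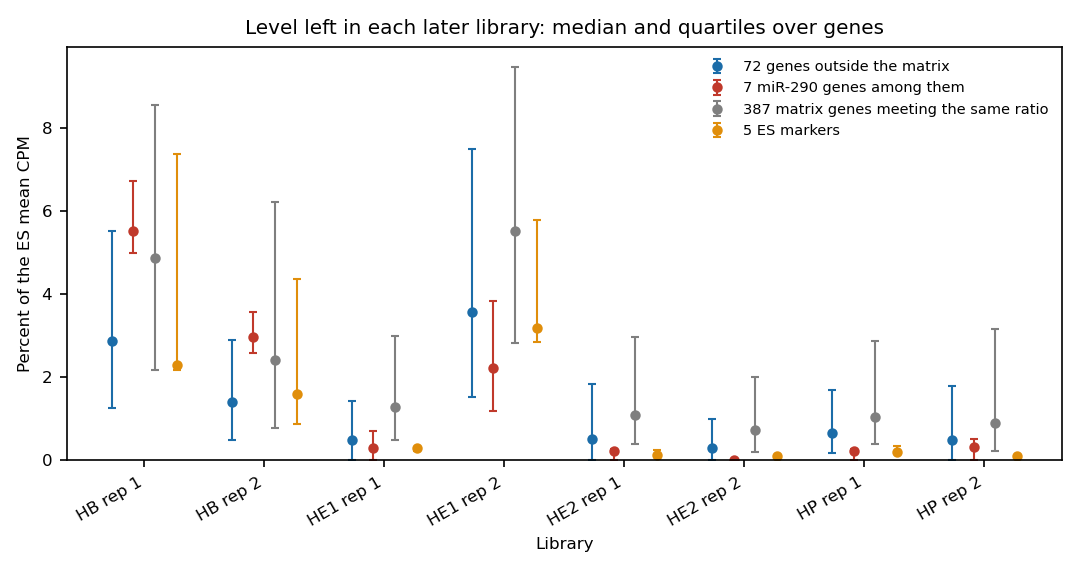
Level left in each later library as a percent of the ES mean CPM: points are medians over genes and bars run from the lower to the upper quartile, for the 72 ES-restricted genes, the 7 miR-290 genes among them, the 387 matrix genes meeting the same ratio, and 5 ES markers. All 4 sets are higher in HE1 replicate 2 (3.56%, 2.21%, 5.52% and 3.18%) than in HE1 replicate 1 (0.470%, 0.299%, 1.28% and 0.277%).

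The rule does not set an order among the later stages. The highest later mean was in HB for 34 genes, in HE1 for 30, in HP for 6 and in HE2 for 2. Without HE1 replicate 2 it was in HB for 56, in HP for 11, in HE2 for 4 and in HE1 for 1, so that the genes placed in HE1 rest on that library. Counts were low: 29 of the 72 genes had 10 or more counts in both libraries of any later stage, and 9 were at or under 3 counts in each of the 8 later libraries. All 72 passed the filter on low counts because of their ES counts (188 or more), so that many tests among later stages rest on few fragments. The counts of calls below are therefore given as a description of these genes, and nothing is read from their shares against the background.

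From HB to HP, 16 of the 72 genes (22.2%) were lower, beside a background of 11.6% of all genes tested, and 2 (2.78%) were higher, beside 10.1% (edgeR's quasi-likelihood test, adjusted p under 0.05 and at least 2-fold). With the 4 libraries of these stages alone, 7 of the 18 genes did not pass the filter on low counts (Gm10351, Gm13110, Gm2379, Mir290a, Mir291a, Mir294 and Zfp640), and the other 11 were called. The genes that were lower comprised 6 of the 7 miR-290 genes, 8 lncRNAs or pseudogenes named below, and the TEC genes Gm10351 and Gm43041. The count was 9 without HB replicate 1, 9 without HP replicate 1, 29 without HE1 replicate 1 and 28 without HE1 replicate 2. The HE1 libraries enter this comparison only through the joint fit: its low-count filter, scaling, estimate of the spread and adjustment over genes. The part of each was not tested. The 5 ES markers stood at 103 and 73.4 CPM in HB against 5.88 and 1.49 in HP, and their part in these counts was not tested.

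EU599041 fell most clearly among the lncRNAs, from 84 and 49 counts in HB to 2 and 0 in HP, a ratio of 76.3 between the pooled libraries with an exact 95% interval of 20.7 to 637 that covers counting error only (adjusted p = 0.00019). Lncenc1 fell from 8.36 and 3.55 CPM to 0.732 and 0.608, by 3.10 on the log2 scale (SE 0.60, adjusted p = 0.0029). Kis2, the host transcript of the miR-106a cluster, fell from 1.41 and 0.777 CPM to 0.111 and 0, a pooled ratio of 15.8 (6.47 to 50.3, adjusted p = 0.0036). Platr10 was just inside the threshold (adjusted p = 0.0497). AC079441.1, Gm13110, Gm2379 and the zinc finger pseudogene Zfp640 were the other 4. Gm2379 rests on 3 and 2 counts in HB against 0 in HP, both at or under the floor, so no fold is given.

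Among the miRNA genes, Mir293 went from 18 and 28 counts in HB to 0 in both HP libraries, at least 8.32-fold lower against a floor of 3 counts per library (adjusted p = 0.00023). Mir291b fell by 3.71 on the log2 scale (SE 0.52, adjusted p = 0.00039), with 40 and 31 counts in HB and 3 in each HP library. Mir290a, Mir291a, Mir292 and Mir294 had 20 to 34 counts in HB and 1 or 2 in HP over both libraries. Mir295, with 0.620 and 0.194 CPM in HB and 0.0222 and 0.0676 in HP, had an adjusted p of 0.074 and was not called. The 7 genes share a primary transcript and are not independent of each other.

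Panct2 and Gm42793 were the genes that rose from HB to HP. Panct2, a lncRNA on the strand opposite to Slco4c1, an organic anion transporter gene, had 19.7 and 22.4 CPM in ES. HB held 0.413 and 0.139 CPM, HE1 held 0.161 and 0.485, HE2 held 0.211 and 0.456, and HP held 2.195 and 1.86. Both HP libraries were above all those of HB, HE1 and HE2, and the rise from HB was 2.92 on the log2 scale (SE 0.53, adjusted p = 0.0019). Slco4c1 itself had 47.0 and 47.4 CPM in ES and 0.964 and 0.139 in HB, and its levels were 0.201 and 0.448 CPM for HE1, 0.634 and 1.06 for HE2, and 2.93 and 4.80 for HP. No exon bases are shared between these genes. Gm42793 had 0.207 and 0.0832 CPM in HB. Its HE1 libraries held 0.0401 and 1.20, those of HE2 1.81 and 1.22, and those of HP 2.13 and 5.41 CPM, a rise of 4.67 on the log2 scale from HB to HP (SE 0.85, adjusted p = 0.0019). Spp1 had 1.10 and 0.499 CPM in HB and 16.4 and 39.6 in HP, and the 2 genes cannot be told apart where their exons coincide. Their annotated starts lie 3 bases apart on the same strand, and unspliced Spp1 RNA was not separated from Gm42793.

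From HB to HE1, 5 genes (6.94%) were lower beside a background of 8.19%, and 2 (2.78%) were higher beside 12.7%. With the 4 libraries of these stages alone, 4 of these 7 genes passed the filter on low counts, and 3 of them were called, all lower. Mir291b (adjusted p = 0.0038), Mir293 (0.0086), Kis2 (0.0096), EU599041 (0.010) and Mir294 (0.031) were lower in edgeR's test. The genes that were higher, E130202H07Rik (1 and 19 counts in HE1, 0 in HB) and 4930519F16Rik (5 and 23 counts against 3 and 1), were each highest in HE1 replicate 2 and did not pass the filter when the 4 libraries were fitted alone. Without HE1 replicate 2, 11 genes were lower and 0 higher. Kis2 was then no longer called (adjusted p = 0.059), while Mir291b, Mir293, EU599041 and Mir294 were among the 11. For E130202H07Rik and 4930519F16Rik the adjusted p was then 0.22 and 0.25 (edgeR). Without HE1 replicate 1, 5 were lower and 17 higher. Without either HB library, 3 were lower and 0 higher. Mir291b remained lower without each library in turn, with adjusted p from 0.0028 to 0.023.

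From HE1 to HE2, Lncenc1, its neighbour Gm2379 and Zfp42-ps1 were lower (4.17%), beside a background of 5.39%, and 0 were higher, beside 3.26%. DESeq2 called 15 lower and limma-voom 2, 30 were lower at an unadjusted p under 0.05, and with the 4 libraries of these stages alone edgeR called 0. In that fit Gm2379 and Zfp42-ps1 did not pass the filter on low counts, and Lncenc1 had a log2 fold change of -2.45 with an adjusted p of 0.073. The count of genes that were higher was 0 with DESeq2 and limma-voom too, 1 at an unadjusted p under 0.05, 1 without HE1 replicate 2 (Gm42793) and 1 without HE1 replicate 1. Gm2379 rests on 4 and 6 counts in HE1 against 0 in HE2. Zfp42-ps1 went from 0.201 and 1.83 CPM to 0.0906 and 0.0911, and Lncenc1 from 3.49 and 13.6 to 1.93 and 0.942 by 2.43 on the log2 scale (SE 0.55, adjusted p = 0.023). No gene was lower without HE1 replicate 2 or without HE2 replicate 2, 32 were lower without HE1 replicate 1, and 5 without either HB library. From HE2 to HP, edgeR called 0 of the 72 genes in either direction, beside 0% of all genes tested in each direction. At an unadjusted p under 0.05, 1 was lower and 2 were higher. DESeq2 called 0 as lower and 1 as higher and limma-voom 0 in either direction. Over all genes DESeq2 called 194 lower and 107 higher, and limma-voom 27 and 35.

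The matrix genes next to the ES-restricted genes were not chosen by their own values, although they were measured in the same libraries. The nearest start of a matrix gene lay within 50 kb for 40 of the 72 genes, which gave 33 neighbours because Nlrp12 was nearest to all 7 miR-290 genes and Zfp936 to a further pair. With edgeR, 20 of the 33 (60.6%) were lower in HB than in ES, beside 17.3% of all genes tested. None was higher, beside 11.5%, with 2 higher at an unadjusted p under 0.05 and 0 with DESeq2 or limma-voom. The median log2 fold change was -3.82 over the neighbours and 0 over all genes tested. The count of 20 was the same without each library in turn. Of the 457 neighbours found in the same way for the other 868 genes, 74 (16.2%) were lower in HB. In HP against ES, which shares the ES libraries, 21 neighbours (63.6%) were lower beside 21.9%, and 2, Itsn2 and Tpst2, were higher beside 16.7%.

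Spp1, Apela and Gm26992 share exon bases with their ES-restricted gene on the same strand and thus share fragments with Gm42793, Gm45886 and Tsix. Apela, the gene of a peptide ligand of the apelin receptor, had 28.8 and 28.2 CPM in ES and 1.03 and 0.277 in HB. Leaving these 3 out, 17 of 30 neighbours (56.7%) were lower in HB with a median log2 change of -1.73, against 61 of 289 (21.1%) for the other genes' neighbours without such an overlap. Overlap on the opposite strand was not left out. Of the exon bases of Nphs1os, 44.6% lie over exons of Nphs1, and all those of Mir291b lie over exons of Nlrp12. Slco4c1 fell by 6.57 on the log2 scale (SE 0.60, adjusted p = 1.9e-05). Nphs1, the gene of nephrin and on the opposite strand to Nphs1os, went from 130 and 131 CPM in ES to 1.62 and 0.194 in HB and thus fell by 7.32 on the log2 scale (SE 0.95, adjusted p = 0.00018). The other called neighbours closest by start were Gm21028, 2410137M14Rik, Plcb4 (a phospholipase C gene), Gpr1 and Zfp936. Plcb4, next to Platr3, fell by 1.25 (SE 0.16, adjusted p = 0.00017) and had 25.4 and 28.7 CPM in HP against 36.2 and 34.2 in ES. Zfp936, next to Gm10351 and Gm17768, fell by 5.69 (SE 0.82, adjusted p = 0.00035) from 81.0 and 83.2 CPM.

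**Figure D5:**
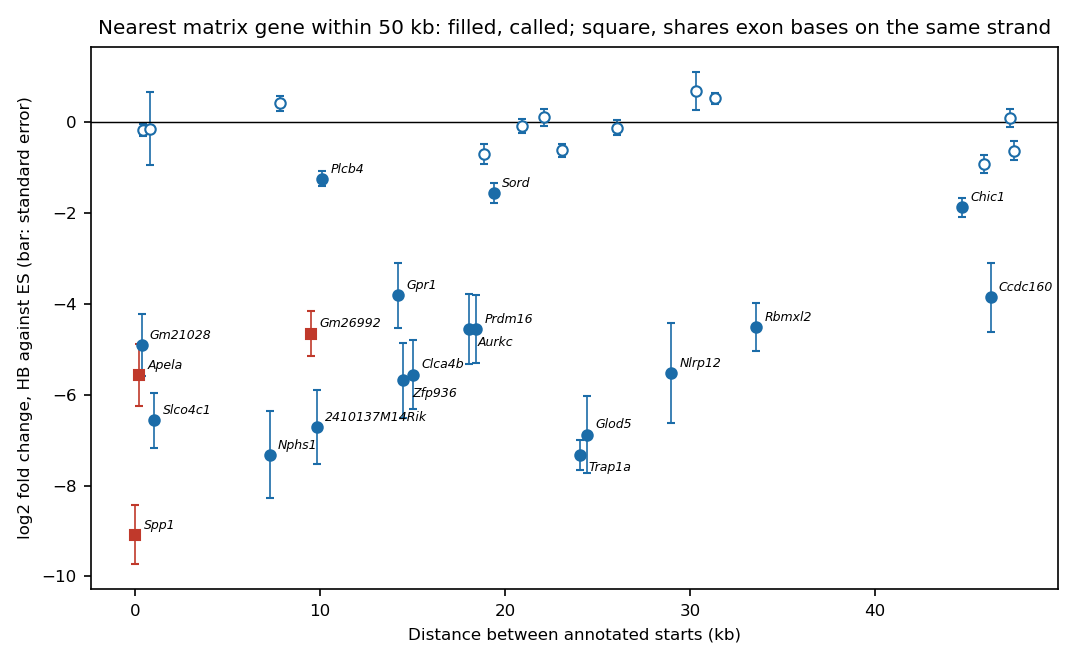
Log2 fold change in HB against ES (bars, standard error) of the nearest matrix gene within 50 kb of an ES-restricted gene, against the distance between annotated starts in kb; filled points were called by edgeR, and squares share exon bases with the ES-restricted gene on the same strand. The 20 filled points are all below 0, and the 13 open points lie between -0.93 and 0.68.

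Neighbours that did not move with their ES-restricted gene were also seen. Gpn1, on the opposite strand to 4930566F21Rik, had 61.7 and 63.7 CPM in ES and 60.4 and 56.3 in HB (log2 change -0.18, SE 0.14, adjusted p = 0.32), while 4930566F21Rik went from 10.6 and 10.8 to 0.482 and 0.0832 CPM. Psme4, 20.9 kb from Gm12100 by start, changed by -0.08 (SE 0.15, adjusted p = 0.71). Outside the nearest-start set, and named after its values were seen, Suv39h1, which encodes a histone H3K9 methyltransferase, lies opposite to Gm14820. It rose from 31.4 and 30.4 CPM in ES to 129 and 116 in HB, by 1.90 on the log2 scale (SE 0.13, adjusted p = 3.0e-06), where Gm14820 went from 11.6 and 9.30 to 0.241 and 0.0555 CPM. Suv39h1 was the only matrix gene opposite to an ES-restricted gene that was called higher in HB. Glod5, the nearest matrix gene to Gm14820 by start, fell by 6.88 in edgeR's test (SE 0.84, adjusted p = 0.00012).

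The 4 genes of the overlap class shared exon bases with a matrix gene on their own strand. Gm23497, a small nuclear RNA gene of 130 bases, lies wholly within exons of Tfcp2l1, a transcription factor of naive pluripotency with 365 and 372 CPM in ES and 5.71 and 3.25 in HB. Gm45886 shares 86.8% of its exon bases with Apela. These counts cannot be told apart from those of the overlapping gene. Tsix shares 7.09% with Gm26992, and 33.3% of its 50-base words match Xist transcripts on the other strand, which the strand-specific counting separates. Of the 19 pseudogenes, all shared some 50-base word with a transcript of another gene, with a median share of 31.2% against 5.19% for the other 53 genes. Gm14058 shared 54.2% with Dppa4, a pluripotency gene, and Gm8935 77.1% with Zfp987. Reads that fit several places are not counted by default, so levels of such genes are uncertain.

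Promoter windows of 300 bases (250 before the start that RefSeq gives and 50 from it on) were held by RefSeq for 21 of the 72 genes in 27 windows. The windows of Lncenc1 and Platr14 are shown because these genes had the highest CPM in ES. Capitals mark a match to 1 of 6 motifs searched on both strands: ATGCAAAT is the POU octamer, CATTGTT the letters searched for SOX factors, AAGGTCA those for ESRRB, GGGNGTGG those for KLF factors, TATAAA the core of the promoter element of that name, and AGATAA the letters searched for GATA factors. The window of Lncenc1 is chr13:97434720-97435019, plus strand, and that of Platr14 is chr2:104559209-104559508, plus strand, both on GRCm38.p6. The start of Platr14 in the count tables is at position 104559163, before this window, so that the window lies within the gene as counted.
Lncenc1: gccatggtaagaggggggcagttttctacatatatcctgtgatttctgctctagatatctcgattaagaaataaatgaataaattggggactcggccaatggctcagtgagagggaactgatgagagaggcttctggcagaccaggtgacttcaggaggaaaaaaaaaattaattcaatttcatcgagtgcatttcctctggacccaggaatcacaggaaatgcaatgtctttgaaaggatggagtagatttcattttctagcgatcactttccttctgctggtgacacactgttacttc
Platr14: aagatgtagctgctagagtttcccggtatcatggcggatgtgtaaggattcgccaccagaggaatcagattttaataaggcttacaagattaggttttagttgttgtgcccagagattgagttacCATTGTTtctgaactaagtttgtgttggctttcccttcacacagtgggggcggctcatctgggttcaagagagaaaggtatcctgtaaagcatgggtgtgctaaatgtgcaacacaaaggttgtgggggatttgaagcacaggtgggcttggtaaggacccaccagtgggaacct
Lncenc1 had no match, and Platr14 had 1 to the SOX motif. Over the 27 windows, 3.70% held the POU octamer against 1.74% of all 32851 windows, 3.70% the SOX motif against 3.78%, 0% the ESRRB motif against 4.72%, 14.8% the KLF motif against 17.6%, 0% the TATA motif against 13.6%, and 22.2% the GATA motif against 11.2%. The window with the POU octamer was that of Platr21. Some genes have several windows that overlap, none of the motifs contains another, and a match describes letters and not binding. The median GC content was 47.0% against 52.7% of all windows, with 4 CG dinucleotides against 7.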

How the data were processed

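Nuclear RNA of 5 stages with 2 libraries each was analysed. The authors removed ribosomal reads with RiboDetector, trimmed reads with Trimmomatic, aligned with HISAT2 2.2.1 and deposited counts of fragments per gene from featureCounts 2.0.1 (paired-end, reverse-stranded, Ensembl release 102 exons of GRCm38), with a fragment that overlaps several genes counted on each. The authors also deposited a matrix of average CPM per stage, made with edgeR 3.40.2 and limma in R 4.2.3. Its ES column sums to more than plain CPM can, so its values were treated as a score, and only its list of genes was used. Names and classes came from GENCODE M21 and sequences from RefSeq.

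CPM was the count over the library total. Genes were tested over all 10 libraries with edgeR 4.0.16 (R 4.3.3): filterByExpr, TMM, quasi-likelihood test, Benjamini-Hochberg adjustment over 22596 genes, called at an adjusted p under 0.05 and at least 2-fold. No test of the ES-restricted genes against ES is reported, since those values chose them. DESeq2 1.42.0 and limma-voom 3.58.1 were alternatives. The fits were tried on simulated data with changes placed only in genes of higher counts, which does not cover calls on few counts. Python 3.11.15 with pandas 2.3.3 made the counts of sets, the positions and the 50-base word search.

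The genes named are the 12 highest in ES, those next to each threshold, up to 6 per later comparison with the smallest adjusted p among those called, list members, members of clusters, and up to 10 called neighbours by distance. Others named were chosen after their values were seen. The rule, the genes and the lists were chosen with earlier results of these data known.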

Additional observations from a re-analysis of the deposited data

How the results depend on the processing

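The ES-restricted set held 157 genes at 2 CPM and 38 at 10 CPM, and 67 to 75 without each library in turn. Calls among the later stages rested on few counts and moved with the processing. The cause was not tested. From HB to HE1, 8 genes were lower and 8 higher with no filter on low counts, 3 and 0 with the 4 libraries compared alone, and 3 to 11 lower and 0 to 17 higher without each library in turn. From HE1 to HE2, 15 were lower with DESeq2, 27 (and 1 higher) with no filter, 0 with the 4 libraries alone, and 0 to 32 lower and 0 to 1 higher without each library. From HE2 to HP, DESeq2 gave 1 higher, no filter 1 lower and 2 higher, and leaving out a library 0 lower and 0 to 1 higher. From HB to HP, no filter gave 31 lower and 4 higher, DESeq2 4 higher, the 4 libraries alone 10 lower, and leaving out a library 9 to 29 lower and 2 to 3 higher. Where a stage was left with 1 library, it was assumed to vary like the others. Of the 28 single calls, 9 held under every alternative run: in HP against HB, EU599041, Gm42793, Kis2, Lncenc1, Mir291b, Mir292, Mir293 and Panct2, and in HE1 against HB, Mir291b. Gm13110 and Mir290a in HP against HB held under the other alternatives, all of which kept ES libraries. They were not tested in the fit of the 4 libraries compared alone. In that fit 7 of the 18 genes called from HB to HP, 3 of 7 from HB to HE1 and 2 of 3 from HE1 to HE2 did not pass the filter on low counts, so that its lower counts are in part fewer genes tested. No call turned its direction.

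Neighbours lower in HB against ES numbered 7 within 10 kb and 31 within 100 kb, with 3 higher within 100 kb, and 20 without each library. In HP against ES they numbered 8 and 32, with 19 to 21 without each library. Those higher in HP were 0 at 4-fold, 0 within 10 kb, and 1 to 2 without each library. With limma-voom, 1 gene of the 2-cell-like list was higher in HB, against 0 with edgeR. Outside the rule, DESeq2 called 10 2-cell-like genes and 10 ESC lncRNAs lower in HB, against 15 and 13 with edgeR. With a replicate block, 5 and 2 genes were called from HB to HE1, 3 from HE1 to HE2, and 12 lower and 2 higher from HB to HP. Libraries of the same number did not deviate together (correlations of -0.316 to 0.213 between stages), and the labels give them only a shared number.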
